A study of Mus musculus with 132 samples.

Results

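The 46 genes described here encode Wnt ligands, their receptors, the secreted and membrane proteins that tune them, the β-catenin destruction complex, the TCF/LEF factors and 3 classic feedback targets. They were chosen by name as members of the Wnt pathway, with no threshold on any measured value. Earlier results of these data were known at the time. All 46 were found among the 25146 genes of the count table. By role they fall into 10 ligands, 14 receptors, 7 genes of the R-spondin branch, 4 secreted inhibitors, 4 genes of β-catenin and its destruction complex, 4 TCF/LEF factors and 3 feedback targets.

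A Wnt protein binds a Frizzled receptor together with Lrp5 or Lrp6, and this stops the destruction complex of Axin, Apc and Gsk3b from marking β-catenin for breakdown. Stabilised β-catenin then joins TCF/LEF factors at target genes, among them Axin2 and Nkd1, whose products damp the signal again, while Wnt5a and Wnt11 with Ror1 and Ror2 are best known for β-catenin-independent signalling. Wnt signalling is needed for the primitive streak and for mesoderm formation, and the supply of Wnt signals is known to bias mesoderm between primitive and definitive blood programs.

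The study followed mouse embryonic stem cells of the E14-TG2a line (129/Ola) through a 7-day hematopoietic differentiation and asked how chromatin boundaries at *Runx1* relate to its expression. RNA without poly(A) tails, which is rich in nascent transcripts, was sequenced from 23 libraries, and accessible chromatin was mapped by ATAC-seq in wild-type cells. Undifferentiated wild-type cells (day 0) gave 2 libraries. Embryoid bodies were treated with BMP4 and then with bFGF and Activin A, and Flk1+ mesoderm sorted on day 4 gave 3 libraries of each genotype (wild type, P1-CTCF-KO and also P2-CTCF-KO). Culture in SCF and VEGF followed. Hematopoietic progenitor cells (HPCs) were gated on day 7 as Ter119- CD41+ CD45-, and the paper describes them as Runx1+. They gave 4 wild-type, 3 P1-CTCF-KO and 5 P2-CTCF-KO libraries. No Wnt ligand, agonist or inhibitor is named among the agents.

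The knockout cells lack the CTCF binding site next to the distal (P1) or the proximal (P2) promoter of *Runx1*, deleted with CRISPR-Cas9 (P1-CTCF-KO or P2-CTCF-KO). Each genotype is represented by 3 clones, named B9.3, C6.1 and C8.1 (wild type), E7.1, E7.2 and E9.1 (P1-CTCF-KO) and D10.1, D2.1 and E9.1 (P2-CTCF-KO), and the 2 clones called E9.1 are different clones. Clones B9.3, D10.1 and D2.1 each gave 2 HPC libraries, marked here by the suffix -2 for the second. The deletions lie outside any coding sequence, so no count in the table checks a library's genotype. The undifferentiated libraries are technical replicates of 1 culture, and a ribosomal depletion kit is named for them but not for the sorted stages, so the stage and the library preparation cannot be told apart in any comparison with them.

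The libraries held 7805102 to 24406998 reads assigned to genes. Ribosomal and multi-locus RNA entries took 68.1 to 91.0% of them, and 4858658 to 7748566 reads per undifferentiated library, 1897917 to 2288976 per mesoderm library and 878966 to 1584401 per HPC library were left for all other genes. The 46 members together held 378 to 24581 reads per library. Of the members, 41 to 42 had more than 3 reads in an undifferentiated library, 32 to 37 in a mesoderm library and 13 to 31 in an HPC library, so that a low HPC level often rests on a few reads. Marker genes followed the stages: *Pou5f1* was at 4.92 and 5.70 CPM (read counts scaled to library size, on a common TMM scale) in undifferentiated cells, *Kdr*, which encodes Flk1, at 16.9 to 39.1 CPM in the 9 mesoderm libraries, and *Itga2b*, which encodes CD41, at 10 to 79.3 CPM in the 12 HPC libraries. *Runx1* was at 45.6 to 163 CPM in HPCs, and at 2.00 to 15.5 CPM in mesoderm.

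Among the HPCs, P2-CTCF-KO D2.1 and wild-type B9.3 stood apart from the other libraries of their groups, including the second library of the same clone. P2-CTCF-KO D2.1 had a summed level of 68.7 CPM over 5 Flk1 mesoderm and endothelial markers (*Kdr*, *Tek*, *Cdh5*, *Etv2*, *Flt1*), against 9.51 to 36.2 CPM in the other 4 P2-CTCF-KO HPC libraries. It had 1.60 CPM over 5 primitive streak markers (*T*, *Eomes*, *Mixl1*, *Mesp1*, *Gsc*), which were at 0 to 0.106 CPM in the others, and 19.3 CPM over 6 hematopoietic markers, against 28.2 to 108 CPM. Wild-type B9.3 had 1.55 CPM over 5 cardiac and paraxial mesoderm markers, against 0 to 0.197 CPM in the other 3 wild-type HPC libraries. That sum came from 16 reads of *Hand1* and 2 of *Tbx6*. B9.3 was also the highest of the wild-type HPCs for the hematopoietic markers, at 63.7 CPM against 37.7 to 56.2 CPM. Its Flk1 mesoderm and endothelial sum was 27.5 CPM, against 8.78 to 22 CPM, and its streak markers were at 0. The counts of called members in HPC comparisons, and the changes of named members that moved most, are also given without them. This omission was chosen after the data were seen, not planned. Both libraries were the highest of their groups for several members, so a larger fall without them is not separate evidence.

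On the common TMM scale the members' combined level was highest in mesoderm. Summed over all 46, it was 123 and 134 CPM in the undifferentiated libraries, 191 to 258 CPM in mesoderm (median 211) and 75.3 to 157 CPM in HPCs (median 85.75). The highest HPC value, 157 CPM, belonged to P2-CTCF-KO D2.1. As raw reads, members held 24581 of 7748566 and 12578 of 4858658 reads outside ribosomal and multi-locus entries in the undifferentiated libraries. In mesoderm they held from 1737 of 1955010 (wild-type C6.1) to 5066 of 2288976 (P1-CTCF-KO E7.2), a smaller share in every library. The order of undifferentiated cells and mesoderm thus depends on the scaling. Reads were counted over exons and introns, so levels are compared between genes per kilobase of annotated gene span. On that scale *Ctnnb1* (β-catenin) led in undifferentiated cells with a mean of 0.876 CPM per kb, followed by *Fzd5* with 0.708 and *Fzd7* with 0.670. In mesoderm the Frizzled receptor gene *Fzd7* led with 2.02 CPM per kb, followed by *Ctnnb1* with 0.637, *Fzd10* with 0.533, *Wnt5a* with 0.362 and *Axin2* with 0.314. In HPCs the order was *Ctnnb1* with 0.353, *Fzd8* with 0.180, *Apc* with 0.141 and *Gsk3b* with 0.138 CPM per kb.

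**Figure D1:**
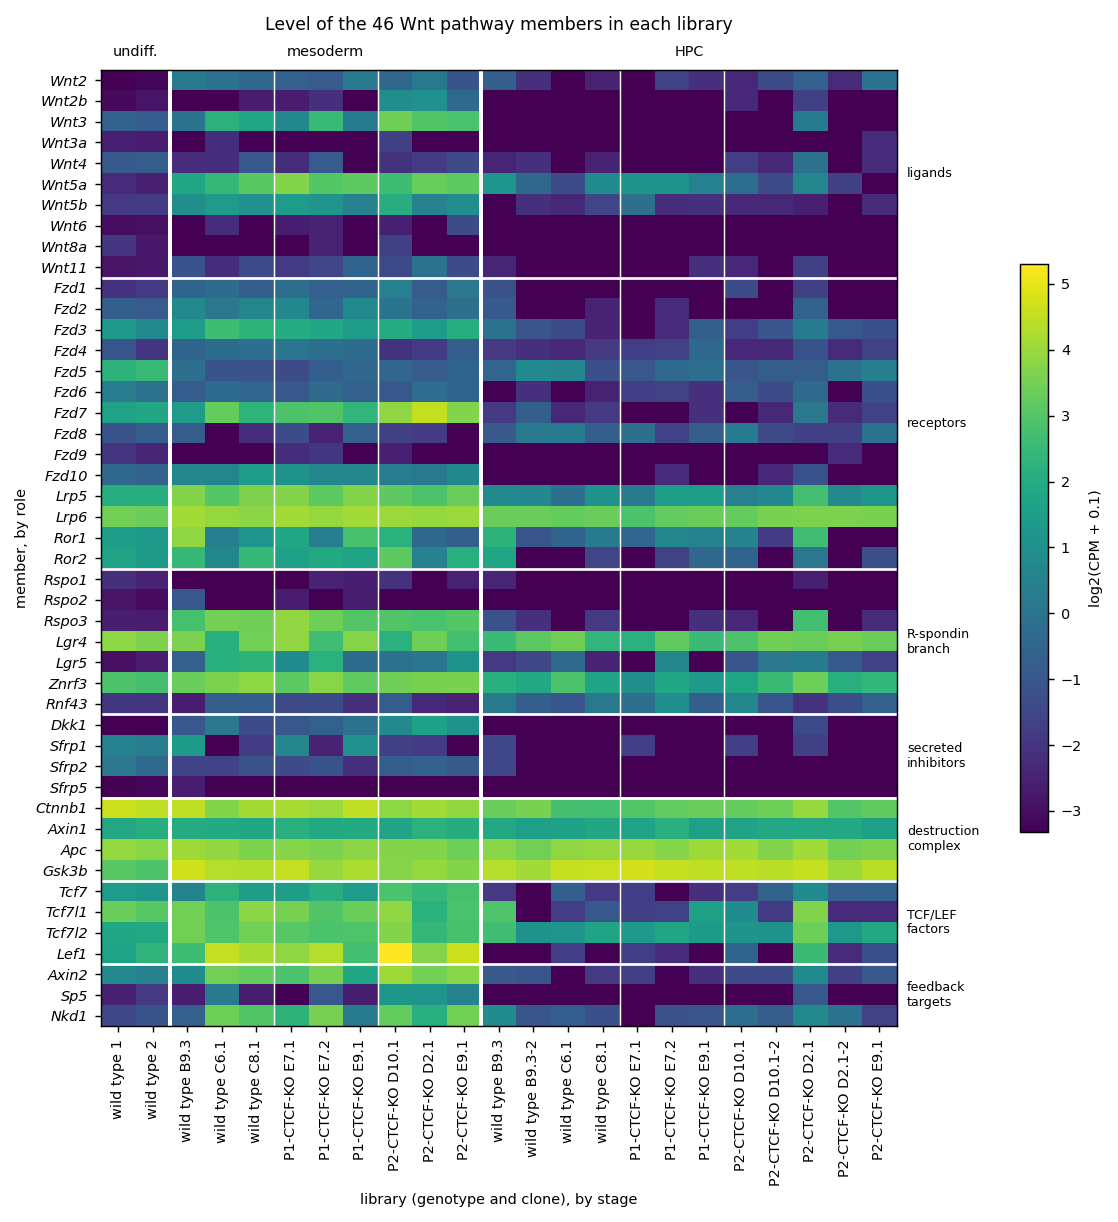
Heat map of log2(CPM + 0.1) for the 46 members (rows, by role) in the 23 libraries (columns, by stage and genotype). *Wnt5a*, *Rspo3*, *Fzd7*, *Lef1* and *Axin2* are brighter in the 9 mesoderm columns than in most HPC columns, ligands such as *Wnt3a* and *Wnt8a* are dark in nearly all columns, and *Lrp6*, *Lgr4*, *Apc*, *Axin1* and *Gsk3b* stay visible in every column.

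Chromatin at the members was described with the ATAC-seq peak lists of wild-type mesoderm (76766 peaks) and HPCs (29037 peaks), each called from 1 merged alignment and deposited as positions without heights. A peak lay within 1000 bp of an annotated start for 37 of the 46 members (80.4%) in the mesoderm list and for 21 (45.7%) in the HPC list. Of all 20198 genes with an annotated start, 61.5% had such a peak in the mesoderm list and 41.7% in the HPC list. Of 68 other pathway genes, 50 and 26 had one.

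Peaks in both lists marked 21 members, among them *Lef1*, *Axin2*, *Nkd1*, *Lgr5*, *Znrf3*, *Fzd7*, *Lrp6*, *Gsk3b* and *Axin1*. A mesoderm peak without an HPC peak marked 16 members, namely *Wnt3*, *Wnt8a*, *Wnt11*, *Fzd2*, *Fzd3*, *Fzd6*, *Fzd10*, *Ror2*, *Rspo3*, *Rnf43*, *Dkk1*, *Sfrp2*, *Sfrp5*, *Ctnnb1*, *Apc* and *Sp5*. No member had an HPC peak alone, and 9 had neither, namely *Wnt2b*, *Wnt3a*, *Wnt4*, *Wnt5a*, *Wnt6*, *Fzd9*, *Lrp5*, *Rspo1* and *Tcf7*. Over all genes, 40.7% had both, 20.8% a mesoderm peak alone, 1.04% an HPC peak alone and 37.5% neither. *Wnt5a*, *Lrp5* and *Tcf7* thus had no listed peak at a start although their RNA was present in every mesoderm library. For *Lrp5* and *Tcf7* the nearest mesoderm peak lay just past the distance limit, at 1409 and 1233 bp. For *Wnt5a* it was 34776 bp away. The lists differ in length and sequencing depth is not given for them, so a peak that is missing from the shorter HPC list is not a measured loss.

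**Figure D2:**
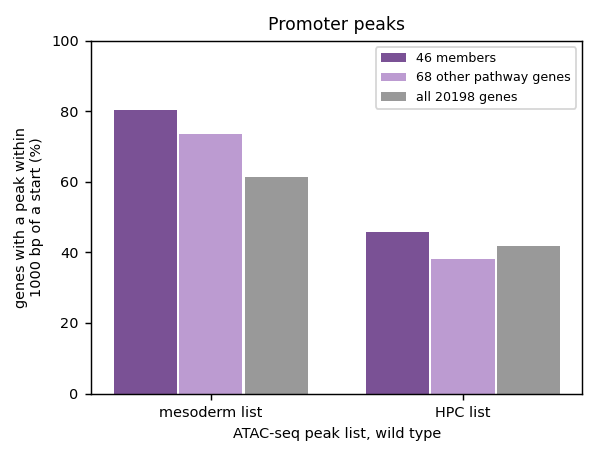
Percentage of genes with an ATAC-seq peak within 1000 bp of an annotated start in the wild-type mesoderm list and the HPC list, for the 46 members, 68 other pathway genes and all 20198 genes. The bars stand at 80.4, 73.5 and 61.5% in mesoderm and at 45.7, 38.2 and 41.7% in HPCs, each from 1 merged list without replicates.

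Within 10 kb of the members lay 202 mesoderm peaks and 61 HPC peaks. The centre of 30 of these 202 mesoderm peaks (14.9%) fell inside an HPC peak, against 22.2% of all mesoderm peaks. The core to which TCF/LEF factors bind was searched on both strands as CTTTG followed by AA, AT, TA or TT. At least 1 match stood in the 200 bases around the centre of 41 of the 202 peaks near members (20.3%), against 14.4% of all mesoderm peak windows and 10.9% of all HPC peak windows. In the 250 bases upstream of the most upstream start, 6 of 46 members (13%) and 13.6% of all genes held a match, so the promoter windows of the members stood near the share of all genes.

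The 7 windows shown here, read from the mm9 assembly on the strand of the gene, are a selection from classic β-catenin targets that held a match, and the capitals mark the match. Windows on peaks whose centre lies in an exon are not printed. The first 3 are promoter windows. For *Tcf7* (chr11:52096682-52096931, minus strand) 1 match starts 195 bases upstream of the start, for *Sp5* (chr2:70312730-70312979, plus strand) matches start 222 and 104 bases upstream, and for *Nkd1* (chr8:91044993-91045242, plus strand) 1 match starts 73 bases upstream. The *Nkd1* start has a peak in both lists, the *Sp5* start in the mesoderm list and the *Tcf7* start in neither.

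Tcf7 promoter window: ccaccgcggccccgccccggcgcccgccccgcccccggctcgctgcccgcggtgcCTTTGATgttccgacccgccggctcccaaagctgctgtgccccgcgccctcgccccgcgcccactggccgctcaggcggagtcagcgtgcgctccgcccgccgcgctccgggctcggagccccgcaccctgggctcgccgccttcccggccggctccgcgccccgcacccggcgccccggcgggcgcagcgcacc
Sp5 promoter window: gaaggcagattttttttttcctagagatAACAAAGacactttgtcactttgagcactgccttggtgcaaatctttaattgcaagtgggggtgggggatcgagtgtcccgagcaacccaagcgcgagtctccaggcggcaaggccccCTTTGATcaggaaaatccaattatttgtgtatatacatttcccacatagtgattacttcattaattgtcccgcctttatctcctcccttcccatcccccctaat
Nkd1 promoter window: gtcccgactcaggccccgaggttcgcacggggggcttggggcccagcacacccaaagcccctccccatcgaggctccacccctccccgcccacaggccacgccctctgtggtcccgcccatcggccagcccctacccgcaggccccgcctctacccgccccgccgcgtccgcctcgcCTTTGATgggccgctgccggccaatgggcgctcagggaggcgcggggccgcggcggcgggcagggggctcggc

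The other 4 are, for each gene, the window on the mesoderm peak with a match that lies nearest to a start among peaks outside exons, and none of these 4 peak centres fell inside an HPC peak. They lie in introns of *Lef1* (chr3:130858617-130858816, plus strand), *Lgr5* (chr10:115023549-115023748, minus strand) and *Znrf3* (chr11:5311733-5311932, minus strand), and outside the gene for *Dkk1* (chr19:30624822-30625021, minus strand). The *Znrf3* and *Dkk1* windows hold 2 matches each. Exonic mesoderm peaks with a match, not printed, had their centre 38 bp from a start of *Axin2* (1 match), 167 bp from that of *Sp5* (2 matches), 89 bp from one of *Dkk1* (2 matches) and 19 bp from one of *Nkd1* (1 match). A match describes the letters and does not show that a factor binds there, and a window without one says nothing about the factor.

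Lef1 peak window: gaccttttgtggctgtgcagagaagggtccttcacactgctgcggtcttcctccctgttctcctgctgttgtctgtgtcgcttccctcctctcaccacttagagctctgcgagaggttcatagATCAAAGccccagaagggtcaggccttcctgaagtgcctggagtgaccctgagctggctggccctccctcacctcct
Lgr5 peak window: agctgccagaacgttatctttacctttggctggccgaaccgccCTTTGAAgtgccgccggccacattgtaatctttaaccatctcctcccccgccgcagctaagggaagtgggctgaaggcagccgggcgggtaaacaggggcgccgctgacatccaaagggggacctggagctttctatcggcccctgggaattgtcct
Znrf3 peak window: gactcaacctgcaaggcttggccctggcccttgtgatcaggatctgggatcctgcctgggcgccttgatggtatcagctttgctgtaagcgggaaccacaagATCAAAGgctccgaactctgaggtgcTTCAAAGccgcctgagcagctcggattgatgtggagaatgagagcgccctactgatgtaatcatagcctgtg
Dkk1 peak window: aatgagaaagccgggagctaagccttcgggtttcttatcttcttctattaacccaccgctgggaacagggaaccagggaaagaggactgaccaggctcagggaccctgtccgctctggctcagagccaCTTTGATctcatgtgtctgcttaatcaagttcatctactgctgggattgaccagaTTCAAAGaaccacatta

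The first comparison asked which members differ between undifferentiated cells and wild-type mesoderm. On the TMM scale members of nearly every role rose, and *Fzd5* fell. The rise was of several log2 units for 4 of the 5 tested ligands, *Rspo3*, *Lgr5* and the feedback targets *Axin2* and *Nkd1*. Of 35 members tested, 14 rose and 1 fell by edgeR's quasi-likelihood test (Benjamini-Hochberg adjusted p under 0.05 and a log2 fold change over 1 in size, the rule for a called change throughout). Over all 12899 genes tested, 24.4% were called changed and 10.7% higher. The median log2 fold change was 1.08 over the tested members and -0.18 over all tested genes. These calls rest on the TMM scale. As shares of reads outside ribosomal and multi-locus entries, *Wnt2*, *Wnt5a*, *Wnt5b*, *Rspo3* and *Lgr5* were higher in every wild-type mesoderm library, and *Fzd5* lower. The shares of *Wnt3*, *Fzd1*, *Fzd10*, *Lrp5*, *Gsk3b*, *Tcf7l2*, *Lef1*, *Axin2* and *Nkd1* overlapped between the stages. The 11 members left out by the filter on low counts were *Wnt2b*, *Wnt3a*, *Wnt6*, *Wnt8a*, *Wnt11*, *Fzd9*, *Rspo1*, *Rspo2*, *Dkk1*, *Sfrp5* and *Sp5*.

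Of the ligands, *Wnt3*, a canonical ligand needed for the primitive streak (chr11:103635488-103679335), was at 0.551 and 0.471 CPM in undifferentiated cells and at 0.870 (B9.3), 4.62 (C6.1) and 3.24 CPM (C8.1) in mesoderm. It rose by 2.44 ± 0.61 on the log2 scale (SE; adjusted p = 0.019). *Wnt5a*, the leading ligand of β-catenin-independent signalling (chr14:29318658-29340633), went from 0.109 and 0.0687 CPM to 3.42, 5.22 and 8.52 CPM, a log2 fold change of 5.91 ± 0.70 (adjusted p = 0.00024). In CPM both ligands were higher in every mesoderm library than in either undifferentiated one. Over all genes tested, 59.3% did not overlap between these stages. For both ligands clone B9.3 was the lowest mesoderm library.

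*Wnt5b*, a close relative of *Wnt5a*, went from 0.169 and 0.186 CPM to 1.80, 2.55 and 1.98 CPM (log2 fold change 3.53 ± 0.46, adjusted p = 0.00036). *Wnt2*, a canonical ligand of mesodermal tissues, had 1 read in the undifferentiated libraries together and 36 in mesoderm, a ratio of 244 with a 95% counting interval of 41.0 to 9890 (adjusted p = 0.00037). *Wnt4* was at 0.448 and 0.481 CPM and then at 0.116 to 0.420 CPM (log2 fold change -0.98, adjusted p = 0.20). Of the 5 tested ligands 4 therefore rose, and *Wnt4* did not pass the test.

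Of the untested ligands, *Wnt8a* had 34 reads in undifferentiated cells and 0 in wild-type mesoderm, and *Wnt3a* had 19 and 1. *Wnt11* had 12 reads at each stage, which at the lower mesoderm depth is 0.0382 and 0.0490 CPM against 0.121 to 0.348 CPM. *Wnt2b* and *Wnt6* had 7 reads each in undifferentiated cells and 1 each in mesoderm. These members are at the edge of what the depth can show. Of the Wnt genes outside the 46, *Wnt7a* had 59 and 25 reads in undifferentiated cells, *Wnt7b* 76 and 70, and *Wnt9a* 70 and 38. In each wild-type mesoderm library *Wnt7a* and *Wnt7b* had 0 reads and *Wnt9a* at most 2. The remaining Wnt genes outside the 46 had at most 4 reads in any of these libraries. The rise of listed ligands thus does not extend to all Wnt genes.

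Of 13 receptors tested, *Fzd1*, *Fzd10* and *Lrp5* rose and *Fzd5* fell. *Lrp5*, a co-receptor of canonical signalling, went from 4.01 and 4.05 CPM to 12.9, 8.14 and 12.4 CPM (log2 fold change 1.47 ± 0.31, adjusted p = 0.0057). *Fzd10* went from 0.644 and 0.569 CPM to 1.51, 1.46 and 2.64 CPM (1.63 ± 0.40, adjusted p = 0.018), and *Fzd1* from 0.142 and 0.177 CPM to 0.580, 0.729 and 0.480 CPM (1.85 ± 0.62, adjusted p = 0.046). *Fzd5* was at 4.65 and 5.53 CPM and then at 0.812, 0.364 and 0.360 CPM, a log2 fold change of -3.25 ± 0.51 (adjusted p = 0.0010). No mesoderm library overlapped the undifferentiated ones for these 4 receptors, beside 59.3% of all genes tested without overlap.

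*Fzd7*, the highest member per kilobase in mesoderm, was at 3.02 and 3.43 CPM and then at 2.61, 9.59 and 4.80 CPM, so that B9.3 lay below both undifferentiated libraries (log2 fold change 0.77, adjusted p = 0.23). *Lrp6*, the second co-receptor, went from a mean of 10.6 CPM to 17.2, 15.3 and 13.9 CPM (0.54, adjusted p = 0.064). The tyrosine kinase receptors of Wnt5a differed widely between clones, with *Ror1* at 14.4 CPM in B9.3 against 1.21 and 2.16 CPM in C6.1 and C8.1, and *Ror2* at 5.40 CPM in B9.3 and C8.1 against 1.46 CPM in C6.1.

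In the R-spondin branch, secreted R-spondins bind Lgr4 or Lgr5 and relieve Frizzled receptors from removal by the ligases Znrf3 and Rnf43. *Rspo3* (chr10:29172912-29255673) went from 0.0655 and 0.0589 CPM to 6.79, 11.3 and 10.4 CPM, a log2 fold change of 7.16 ± 0.51 (adjusted p = 1.8e-05). *Lgr5*, itself a target of the pathway, went from 0.0273 and 0.0589 CPM to 0.522, 4.25 and 4.68 CPM (6.16 ± 0.93, adjusted p = 0.00088). *Lgr4*, the more broadly expressed receptor, was at 14.2 and 12.4 CPM and then at 12, 4.25 and 11 CPM (-0.54, adjusted p = 0.33). *Rspo3* had the largest log2 fold change of the members that had more than 3 reads in both groups. *Znrf3* (0.78, adjusted p = 0.091) and *Rnf43* (0.96, adjusted p = 0.30) did not pass the test.

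The secreted inhibitor *Dkk1*, which blocks Lrp5 and Lrp6 and is itself a target, had 0 reads in the undifferentiated libraries and 20 in mesoderm, at 0.406, 0.972 and 0.300 CPM. Against a floor of 3 reads over the undifferentiated group this is at least 45.1-fold higher, with no test since the filter left it out. *Sfrp1* and *Sfrp2*, which bind Wnt proteins in the medium, gave log2 fold changes of -0.28 (adjusted p = 0.84) and -1.53 (adjusted p = 0.075).

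Of β-catenin and its destruction complex, the kinase gene *Gsk3b* (chr16:38089086-38246170) rose from 8.40 and 7.27 CPM to 25.8, 20.3 and 19.7 CPM (1.48 ± 0.24, adjusted p = 0.0012). *Ctnnb1* (-0.43), *Axin1* (-0.06) and *Apc* (0.02) gave adjusted p-values of 0.31, 0.88 and 0.97. Of the TCF/LEF factors, *Lef1* (chr3:130813214-130927275), itself a target, rose from 3.14 and 4.77 CPM to 6.09, 23 and 18.4 CPM (1.98 ± 0.52, adjusted p = 0.015), and *Tcf7l2* from 3.49 and 3.69 CPM to 11, 7.53 and 11 CPM (1.46 ± 0.39, adjusted p = 0.019). *Tcf7* (0.19) and the repressive factor *Tcf7l1* (0.23) gave adjusted p-values of 0.79 and 0.88.

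Both tested feedback targets rose on the TMM scale, against undifferentiated libraries that are technical replicates of 1 culture. *Axin2* (chr11:108781662-108812095), the most widely used readout of β-catenin signalling, was at 1.57 and 1.25 CPM and then at 1.74, 10.9 and 9.60 CPM (log2 fold change 2.37 ± 0.64, adjusted p = 0.018). *Nkd1*, an inhibitor of Dishevelled (chr8:91045242-91118786), was at 0.268 and 0.373 CPM and then at 0.522, 10.4 and 7.68 CPM (4.24 ± 0.95, adjusted p = 0.0073). Clone B9.3 lay just above the undifferentiated libraries for both, while C6.1 and C8.1 lay far above. *Sp5*, a transcription factor target, had 30 and 11 reads.

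Of 69 other pathway genes in the table, 49 were tested and 15 were called higher and 11 lower. By smallest adjusted p they were led by *Nfatc1* (3.88), a calcineurin-regulated transcription factor, the glypican *Gpc4* (-2.83), the membrane inhibitor *Apcdd1* (4.73), the planar cell polarity gene *Prickle1* (3.74) and *Tle4* (-1.77), a co-repressor of TCF factors. The count of 15 members rests on few libraries: it was 7 without either undifferentiated library, 7 with the technical replicates summed and 9 without wild-type C8.1. Without an undifferentiated library *Wnt3*, *Lef1*, *Axin2*, *Nkd1*, *Lrp5*, *Fzd1*, *Fzd10* and *Tcf7l2* kept their direction with adjusted p-values of up to 0.34.

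**Figure D3:**
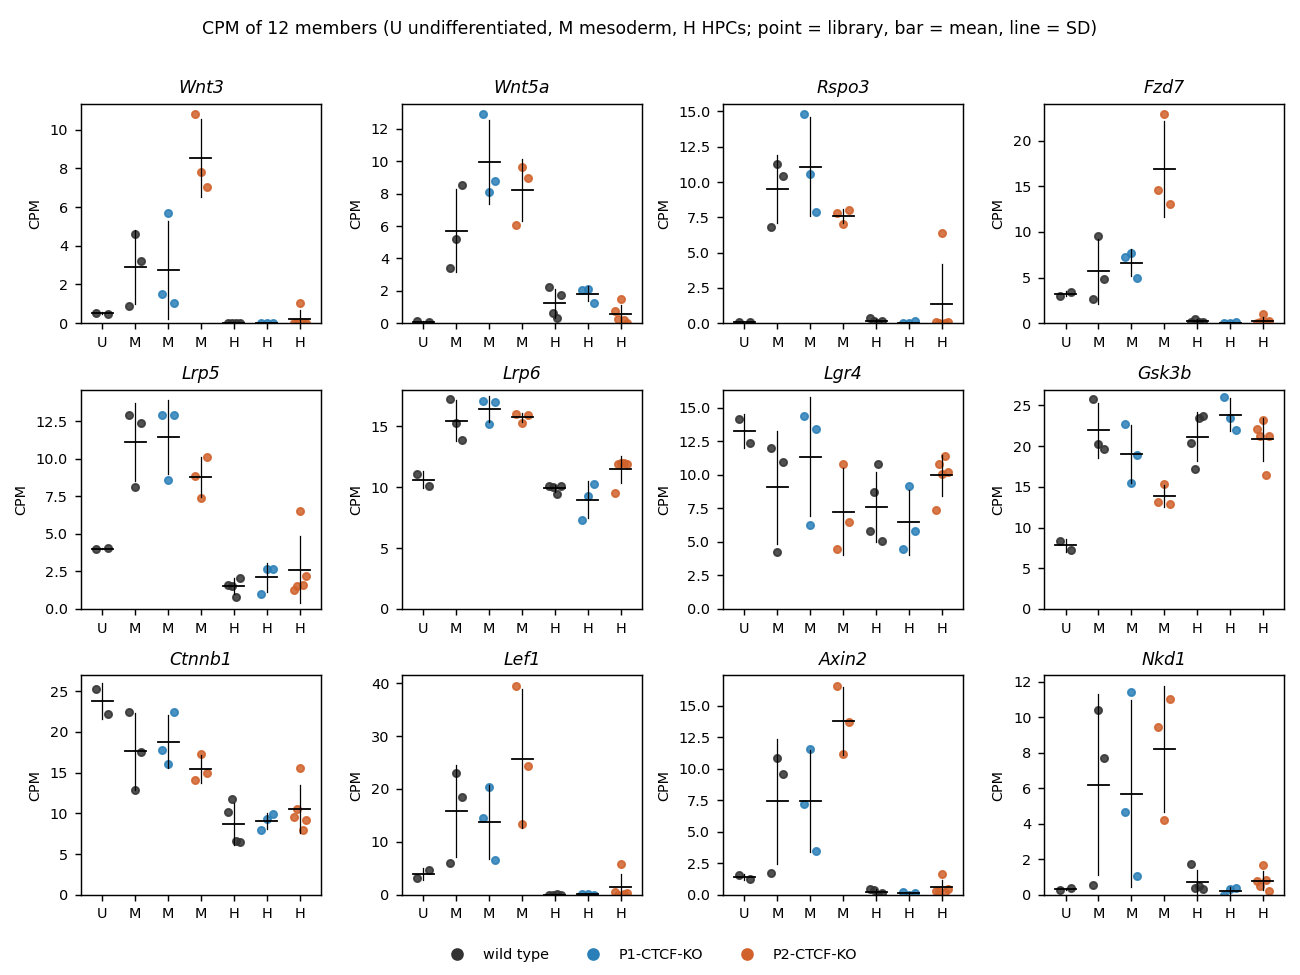
CPM of 12 members in undifferentiated cells (U), mesoderm (M) and HPCs (H), with 1 point per library, colours for the genotypes, a bar for the mean and a vertical line for ±1 SD. Ligands, *Rspo3*, *Fzd7*, *Lef1*, *Axin2* and *Nkd1* peak in mesoderm with wide spread between clones, while *Gsk3b*, *Lrp6* and *Lgr4* remain at several CPM or more in HPCs.

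The second comparison followed the step from mesoderm to HPCs in wild-type clones. The ligands, *Rspo3*, most Frizzled genes measured, *Lef1*, *Tcf7* and the feedback targets *Axin2* and *Nkd1* fell, most of them to a few reads per library, while *Gsk3b*, *Axin1*, *Apc*, *Lgr4* and *Fzd5* did not pass the test. Of 31 members tested, 19 fell and 0 rose, beside 27.2% of all 9170 tested genes called changed and 13.9% called lower. The median log2 fold change was -2.90 over the tested members and 0.01 over all tested genes. In sorted bulk cells a lower level can mean fewer cells that express a gene or less RNA per cell, and these cannot be told apart.

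*Wnt3* had 107 reads in wild-type mesoderm and 0 in the 4 wild-type HPC libraries, at least 35.2-fold lower (adjusted p = 0.0030). *Fzd10* had 82 and 0 reads, at least 27.0-fold lower (adjusted p = 6.3e-05), and *Dkk1* 20 and 0, at least 6.58-fold lower (adjusted p = 0.0047). *Lef1* had 601 reads in mesoderm and 2 in HPCs, a ratio of 0.00337 with a 95% counting interval of 0.000407 to 0.0122 (adjusted p = 0.00023). These 4 genes did not overlap between the stages in any library of wild-type cells, beside 39.7% of all genes tested without overlap.

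*Wnt5a* was the highest ligand in wild-type HPCs by CPM, at 2.23 (B9.3), 0.640 (B9.3-2), 0.296 (C6.1) and 1.75 CPM (C8.1), all below mesoderm. Its log2 fold change was -2.20 ± 0.57 (adjusted p = 0.0061). *Wnt5b* was at 0 to 0.250 CPM in HPCs (-4.04 ± 0.63, adjusted p = 0.00013). The other ligands were too low to test, with 8 HPC reads against 36 mesoderm reads for *Wnt2*, 3 against 10 for *Wnt4* and at most 1 HPC read each for *Wnt2b*, *Wnt3a*, *Wnt6*, *Wnt8a* and *Wnt11*.

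Of the receptors, *Fzd7* (chr1:59538990-59543799) was at 0.172, 0.512, 0.0986 and 0.167 CPM in wild-type HPCs, against 2.61 to 9.59 CPM in mesoderm (-4.62 ± 0.68, adjusted p = 8.0e-05). *Lrp5* was at 1.63, 1.54, 0.789 and 2.08 CPM (-2.90 ± 0.46, adjusted p = 0.00016), *Fzd3* at 0.0833 to 0.859 CPM (-3.43 ± 0.53, adjusted p = 0.00013) and *Fzd2* at 0 to 0.429 CPM (-3.20 ± 0.89, adjusted p = 0.0094). *Lrp6* was at a mean of 9.92 CPM in HPCs, with every library below every mesoderm library, and its log2 fold change of -0.67 ± 0.15 (adjusted p = 0.0020) stayed under the size limit. The co-receptors thus moved by unequal amounts on the log2 scale, and the difference between them was not tested.

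*Fzd5* was at 0.601, 1.66, 1.48 and 0.333 CPM in HPCs against 0.360 to 0.812 CPM in mesoderm (0.86, adjusted p = 0.22), and *Fzd8* at 0.429, 1.02, 1.08 and 0.5 CPM against 0 to 0.464 CPM (1.66, adjusted p = 0.13). *Ror1* and *Ror2* gave -1.84 (adjusted p = 0.22) and -2.16 (adjusted p = 0.078), with *Ror1* at 4.64 CPM in B9.3 and at 0.384 to 1.08 CPM in the other wild-type HPC libraries. *Fzd1*, *Fzd4* and *Fzd6* were not tested and had 4, 6 and 2 reads in HPCs, below mesoderm in every library, and *Fzd9* had 0 at both stages.

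*Rspo3* was at 0.344, 0.128, 0 and 0.167 CPM in HPCs, a log2 fold change of -5.77 ± 1.20 (adjusted p = 0.0013), and *Lgr5* at 0.0833 to 0.690 CPM (-3.39 ± 0.92, adjusted p = 0.0082), where C6.1 overlapped the lowest mesoderm library. *Znrf3* was at 3.16 to 7.4 CPM (-1.41 ± 0.34, adjusted p = 0.0035). *Lgr4* (-0.30, adjusted p = 0.57) and *Rnf43* (1.16, adjusted p = 0.25) did not pass the test. *Lgr4* was at 5.84, 8.71, 10.8 and 5.08 CPM and remained among the more abundant members by CPM.

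*Ctnnb1* (chr9:120842517-120869625) fell by 1.05 ± 0.25 on the log2 scale (adjusted p = 0.0038), to 6.50 to 11.7 CPM in the 4 wild-type HPC libraries, the lowest being C8.1 and C6.1. Its fall went under the size limit of 1, at down to 0.84 in size, without mesoderm B9.3, HPC C6.1 or HPC C8.1. *Gsk3b* (-0.08), *Apc* (-0.13) and *Axin1* (-0.24) gave adjusted p-values of 0.75, 0.63 and 0.34, and *Gsk3b* stood at 17.2 to 23.7 CPM in HPCs.

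*Tcf7* was at 0 to 0.493 CPM in HPCs (-3.68 ± 0.64, adjusted p = 0.00031) and *Tcf7l2* at 6.18, 2.05, 2.17 and 3.16 CPM (-1.56 ± 0.49, adjusted p = 0.019). *Tcf7l1* was at 7.56 CPM in B9.3 and at 0, 0.197 and 0.416 CPM in B9.3-2, C6.1 and C8.1 (-2.40 ± 1.18, adjusted p = 0.13). *Axin2* was at 0.429, 0.384, 0 and 0.167 CPM (-4.90 ± 0.77, adjusted p = 0.00015). *Nkd1* was at 1.72, 0.384, 0.493 and 0.333 CPM (-3.03 ± 0.85, adjusted p = 0.010), and B9.3 overlapped mesoderm. With the clone as a block its change was -2.53 (adjusted p = 0.097). *Sp5* went from 11 reads to 0, and *Sfrp1* from 46 reads to 3, a ratio of 0.066 with an interval of 0.0131 to 0.205 (adjusted p = 0.048), a call lost in 18 of 30 alternative settings.

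Of the other pathway genes 37 were tested, and 5 were called higher and 16 lower in wild-type HPCs. The first by adjusted p were the planar cell polarity genes *Vangl2* (-2.47) and *Celsr1* (-5.18), *Gpc4* (3.94), the co-repressor *Tle3* (-1.98) and the pseudokinase receptor *Ptk7* (-4.22).

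Without HPC libraries wild-type B9.3 and P2-CTCF-KO D2.1, 23 of 32 tested members were called lower in wild type, beside 29.7% of all genes, and the median over members was -3.59. The members called in addition were *Ror1* (-3.16), *Tcf7l1* (-5.60), *Wnt2*, with 2 HPC reads (ratio 0.0781, interval 0.00911 to 0.303), and *Ror2*, with 3 (ratio 0.0216, interval 0.00442 to 0.0642). *Fzd2* kept 1 HPC read (ratio 0.0238, interval 0.000594 to 0.138) and *Rspo3* 3 (ratio 0.011, interval 0.00226 to 0.0324). *Sfrp1* had 0, at least 10.9-fold lower, and *Nkd1* stood at -3.97 and *Fzd3* at -4.24. Both omitted libraries were chosen after the data were seen and were high for several members, so a larger fall follows in part from the choice. These libraries also carried the mesoderm, endothelial and cardiac marker levels given above, whose part in the members' levels was not tested.

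The same step in P1-CTCF-KO clones called 19 of 31 members, 18 lower and *Rnf43* higher, beside 32.6% of all genes called changed and 16.1% lower. The median was -2.77 over members and -0.07 over all genes. In P2-CTCF-KO clones 17 were lower, beside 28.2% changed and 11.7% lower, with medians of -1.72 and 0.09. Of the 37 other pathway genes tested, 6 rose and 17 fell in P1-CTCF-KO and 6 rose and 15 fell in P2-CTCF-KO. *Tle3* (-2.31 and -2.27), *Gpc4* (4.02 and 2.34), *Vangl2* (-1.89 and -2.53) and *Celsr1* were among the first 5 by adjusted p in both, with *Daam1* (3.02), a formin of planar cell polarity signalling, in P1-CTCF-KO and the streak gene *T*, with 1 read in HPCs, in P2-CTCF-KO.

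In P1-CTCF-KO cells *Wnt3* had 180 reads in mesoderm and 0 in HPCs, at least 23.1-fold lower (adjusted p = 0.0095), *Rspo3* had 629 and 1 (ratio 0.00413, interval 0.000104 to 0.0231, adjusted p = 0.0020) and *Lef1* 844 and 2 (ratio 0.00616, interval 0.000745 to 0.0223, adjusted p = 0.0012). *Axin2* had 457 and 2 reads (ratio 0.0114, interval 0.00137 to 0.0413, adjusted p = 0.00024), and *Fzd7* 386 and 1 (ratio 0.00674, interval 0.00017 to 0.0377, adjusted p = 5.4e-05). *Wnt5a* was at 12.9, 8.11 and 8.78 CPM in mesoderm and at 2.03, 2.13 and 1.27 CPM in HPCs (-2.47 ± 0.63, adjusted p = 0.0047). None of these genes overlapped between the stages, beside 55.3% of all genes tested without overlap in P1-CTCF-KO.

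*Rnf43*, whose product removes Frizzled receptors, was the 1 member called higher in P1-CTCF-KO HPCs, at 0.811, 1.79 and 0.507 CPM against 0.294, 0.288 and 0.131 CPM in mesoderm (2.07 ± 0.79, adjusted p = 0.044). It rests on 24 and 14 reads and lost the call in 7 of 29 alternative settings. In the blocked fit *Ror2* (-3.42, adjusted p = 0.063) and *Tcf7l2* (-1.47, adjusted p = 0.083) were no longer called in P1-CTCF-KO, where unblocked they were -3.33 and -1.46 with an adjusted p of 0.045 each. The block added *Lgr5* (-2.51, adjusted p = 0.037, against -2.06 and 0.10 unblocked) and *Sfrp1*, with 1 HPC read (ratio 0.0464, interval 0.00116 to 0.269, adjusted p = 0.023 blocked and 0.061 unblocked). The calls for *Tcf7l2* and *Ror2* were lost in 14 and 10 of 29 alternative settings.

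In P2-CTCF-KO cells the HPC levels of several members came from 1 library. *Rspo3* was at 7.78, 7.03 and 7.99 CPM in mesoderm and at 6.42 CPM in HPC library D2.1, against 0.0969 (D10.1), 0 (D10.1-2), 0 (D2.1-2) and 0.109 CPM (E9.1). *Lef1* was at 5.86 CPM in D2.1 and at 0 to 0.582 CPM in the other 4, and *Tcf7l1* at 12.6 CPM against 0.106 to 1.74 CPM. *Wnt3* had 15 reads in D2.1 and 0 in the other 4. D2.1 was the highest of the 5 libraries for each of these genes, far above the second library of the same clone.

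With all 5 libraries the log2 fold changes in P2-CTCF-KO were -2.37 ± 0.84 for *Rspo3* (adjusted p = 0.032), -4.11 ± 0.81 for *Lef1* (adjusted p = 0.00069), -5.0 ± 0.90 for *Wnt3* (adjusted p = 0.00068) and -4.45 ± 0.61 for *Axin2* (adjusted p = 3.0e-05). The call for *Rspo3* was lost in 8 of 29 alternative settings, among them DESeq2 (adjusted p up to 0.13), and that for *Fzd2* also in 8. Without D2.1 and wild-type B9.3 the changes were -6.69 for *Lef1* and -5.54 for *Axin2*. *Rspo3* then had 2 HPC reads (ratio 0.00664, interval 0.0008 to 0.0242) and *Wnt3* had 0, at least 114-fold lower. In that fit 19 of 32 tested members were called lower, beside 33.3% of all genes, with a median of -2.98. *Tcf7l1* (-4.03) and *Tcf7l2* (-1.82) were then called in addition, and *Fzd2*, at -2.39 with all libraries, had 0 HPC reads and was at least 10.2-fold lower. The same omission gave 21 called members in P1-CTCF-KO, beside 35.3% of all genes.

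*Fzd7* had the smallest adjusted p of the members in P2-CTCF-KO, at 14.6, 22.9 and 13.1 CPM in mesoderm and 0 to 0.977 CPM in HPCs (-5.69 ± 0.57, adjusted p = 1.4e-06, and -7.30 without D2.1 and wild-type B9.3). *Sp5* fell in P2-CTCF-KO, where mesoderm held 74 reads and HPCs 6 (-4.08 ± 1.07, adjusted p = 0.0084). All 6 were in D2.1, and without it *Sp5* was at least 25.1-fold lower. *Gsk3b* was at 13.2, 15.4 and 12.9 CPM in mesoderm and 16.4 to 23.2 CPM in HPCs, without overlap, beside 35.5% of all genes tested. Its log2 fold change of 0.57 ± 0.17 (adjusted p = 0.013) stayed under the size limit. With the clone as a block *Fzd2* was no longer called (-2.73, adjusted p = 0.060).

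**Figure D4:**
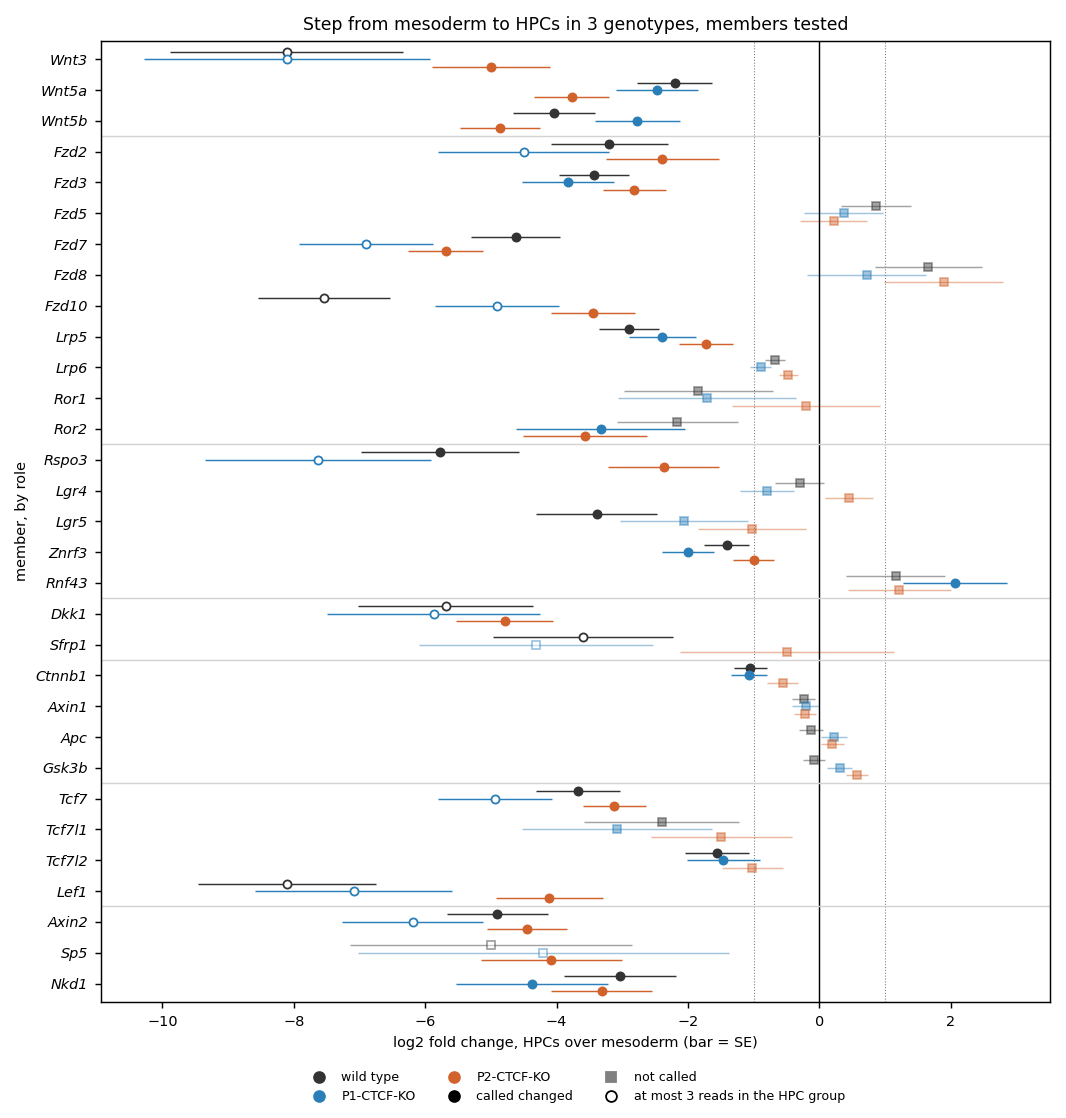
Log2 fold change of HPCs over mesoderm (x axis, bars ±1 SE) for the 31 members tested, by role, in clones of the 3 genotypes. Circles are called changes, squares are not, and open symbols mark members with at most 3 reads in the HPC group, whose fitted size depends on the fitting. Nearly all circles lie left of -1 in all 3 genotypes, and the bars of the genotypes overlap for most members.

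Whether the step differed from that of wild type was tested as an interaction. By edgeR's quasi-likelihood test 0 of 31 members differed for P1-CTCF-KO (0% of all genes) and 0 for P2-CTCF-KO (0.0218% of all genes), and DESeq2 also called 0 in both. At an unadjusted p under 0.05 there were 0 and 4 members. For P2-CTCF-KO these were *Fzd10* (4.09), *Lef1* (3.99), *Rspo3* (3.4) and *Gsk3b* (0.66), with adjusted p-values of 0.48, 0.67, 0.67 and 0.48, and for *Fzd10*, *Lef1* and *Rspo3* HPC library D2.1 was the highest of its group. Without D2.1 and wild-type B9.3 the differences were 2.34 for *Fzd10*, 1.06 for *Lef1*, -0.52 for *Rspo3* and 0.60 for *Gsk3b*, so that *Rspo3* turned direction, and 0 of 32 members differed. *Fzd10* had 0 reads and *Lef1* 2 in wild-type HPCs, so the fitted sizes of these differences depend on the fitting.

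The third comparison asked whether the genotypes differed within mesoderm, before HPCs form. In CPM, every P2-CTCF-KO mesoderm library lay above every wild-type one for *Dkk1*, *Fzd7*, *Sp5*, *Wnt3*, *Tcf7* and *Axin2*, and below for *Fzd4*, *Fzd2* and *Gsk3b*, but no member passed the test. By edgeR's quasi-likelihood test 0 of 31 members were called, beside 0.0342% of all 8778 genes, while 7 members had an unadjusted p under 0.05. The libraries of the groups did not overlap for 9 of 31 members, 6 above and 3 below, beside 19.3% of all genes tested. The median log2 fold change was -0.18 over members and 0.01 over all genes.

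*Dkk1* was at 1.65 (D10.1), 3.0 (D2.1) and 2.07 CPM (E9.1) in P2-CTCF-KO mesoderm, at 0.406, 0.972 and 0.300 CPM in wild type and at 0.411, 0.535 and 0.852 CPM in P1-CTCF-KO. All P2-CTCF-KO libraries lay above the other 6. The log2 fold change against wild type was 2.15 ± 0.46 (adjusted p = 0.12, edgeR), the smallest adjusted p of the members.

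*Fzd7* was at 14.6, 22.9 and 13.1 CPM, against 2.61, 9.59 and 4.80 CPM in wild type and 7.28, 7.66 and 4.98 CPM in P1-CTCF-KO (1.64 ± 0.40 against wild type, adjusted p = 0.14). *Sp5* was at 2.27, 2.16 and 1.33 CPM, against 0.0580, 1.09 and 0.0600 CPM and 0, 0.412 and 0.0656 CPM (2.70 ± 0.92, adjusted p = 0.20). *Wnt3* was at 10.8, 7.79 and 7.03 CPM, against 0.870, 4.62 and 3.24 CPM and 1.53, 5.68 and 1.05 CPM (1.65 ± 0.63, adjusted p = 0.24). For each of the 3 genes every P2-CTCF-KO library was higher than each of the other 6.

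*Tcf7* was at 7.16, 5.25 and 6.88 CPM against 1.39, 4.62 and 2.70 CPM in wild type (1.24 ± 0.37, adjusted p = 0.16). *Gsk3b* was at 13.2, 15.4 and 12.9 CPM against 25.8, 20.3 and 19.7 CPM (-0.65 ± 0.18, adjusted p = 0.16), and *Fzd4* at 0.138, 0.188 and 0.518 CPM against 0.580, 0.729 and 0.780 CPM (-1.24 ± 0.49, adjusted p = 0.26). *Axin2* was at 16.6, 11.2 and 13.7 CPM against 1.74, 10.9 and 9.60 CPM (0.95 ± 0.56, adjusted p = 0.43), where P2-CTCF-KO D2.1 and wild-type C6.1 nearly met. *Lef1* at 39.5, 13.3 and 24.4 CPM and *Nkd1* at 9.43, 4.22 and 11 CPM overlapped wild type.

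The ligand *Wnt2b* (chr3:104747722-104764627) was left out of the fit for its low counts. It had 26, 21 and 9 reads in the P2-CTCF-KO libraries, 1 in wild-type mesoderm and 4 in P1-CTCF-KO mesoderm, a ratio to wild type of 61.0 with a counting interval of 10.5 to 2450. All 3 P2-CTCF-KO clones, at 0.666 to 1.97 CPM, lay above all other mesoderm libraries, at 0 to 0.124 CPM.

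The calls in this comparison depended on the fit. DESeq2 called *Fzd7* (1.62, adjusted p = 0.012) and *Dkk1* (2.15, adjusted p = 0.014), beside 1.89% of all genes. Without the filter on low counts edgeR called 6 members, *Fzd7*, *Sp5*, *Wnt2b*, *Wnt3*, *Tcf7* and *Dkk1*, beside 2.49%, and with all 23 libraries in 1 fit *Wnt2b* (5.67, adjusted p = 0.037), beside 0.144%. Without wild-type clone C6.1 it called 5, *Fzd7* (2.22), *Sp5* (4.88), *Wnt2b* (5.34), *Tcf7* (1.69) and *Dkk1* (2.66), beside 1.37%. C6.1 was the wild-type library with the highest *Fzd7*, *Sp5*, *Wnt3*, *Tcf7* and *Dkk1*.

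Markers of primitive streak and early mesoderm were also higher in P2-CTCF-KO mesoderm. Their sum over *T*, *Eomes*, *Mixl1*, *Mesp1* and *Gsc* was 31.1, 65.1 and 33.5 CPM in P2-CTCF-KO mesoderm, 1.86, 13.1 and 3.54 CPM in wild type and 6.93, 11.9 and 3.93 CPM in P1-CTCF-KO, without overlap. The sum of 6 hematopoietic markers was 0.551, 0.563 and 2.15 CPM in P2-CTCF-KO, against 3.60 to 4.25 CPM and 2.76 to 5.57 CPM. Within P2-CTCF-KO, D2.1 had the highest streak sum, the highest *Fzd7* and *Dkk1*, and the lowest *Axin2* and *Tcf7*. *T* is itself among the other pathway genes. The part of these markers in the members' levels was not tested.

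P1-CTCF-KO mesoderm showed 0 called members against wild type in edgeR and in DESeq2, beside 0% of all genes, and 1 at an unadjusted p under 0.05, *Wnt5a* (0.79 ± 0.32, adjusted p = 1.0). No member's libraries were separated, beside 6.45% of all genes. P2-CTCF-KO against P1-CTCF-KO mesoderm also gave 0 calls by edgeR (0% of all genes) and 7 members at an unadjusted p under 0.05, and 7 members were separated, beside 18.1% of all genes. DESeq2 called *Dkk1* there (1.94, adjusted p = 0.030), beside 1.12%, the fit without the filter called 5 members, beside 1.54%, and the fit without wild-type B9.3 called *Wnt2b*, beside 0.404%. These comparisons share the P2-CTCF-KO or the wild-type libraries and are not independent of each other.

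Within a genotype the mesoderm clones spread widely. The summed level of *Axin2*, *Sp5* and *Nkd1* was 2.32 CPM in wild-type B9.3, against 22.5 CPM in C6.1 and 17.3 CPM in C8.1. In P1-CTCF-KO it was 4.59 CPM in E9.1, 11.9 CPM in E7.1 and 23.3 CPM in E7.2, and in P2-CTCF-KO 28.3, 17.5 and 26.1 CPM. B9.3 and P1-CTCF-KO E9.1, the lowest for the targets, had the highest sums of Flk1 mesoderm and endothelial markers, 102 and 78.9 CPM, against 27.3 to 50.3 CPM in the other 7 libraries. They were also the highest for *Ror1*, at 14.4 and 6.82 CPM against 0.518 to 4.41 CPM, and for *Sfrp1*, at 2.49 and 1.97 CPM against 0 to 1.41 CPM.

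**Figure D5:**
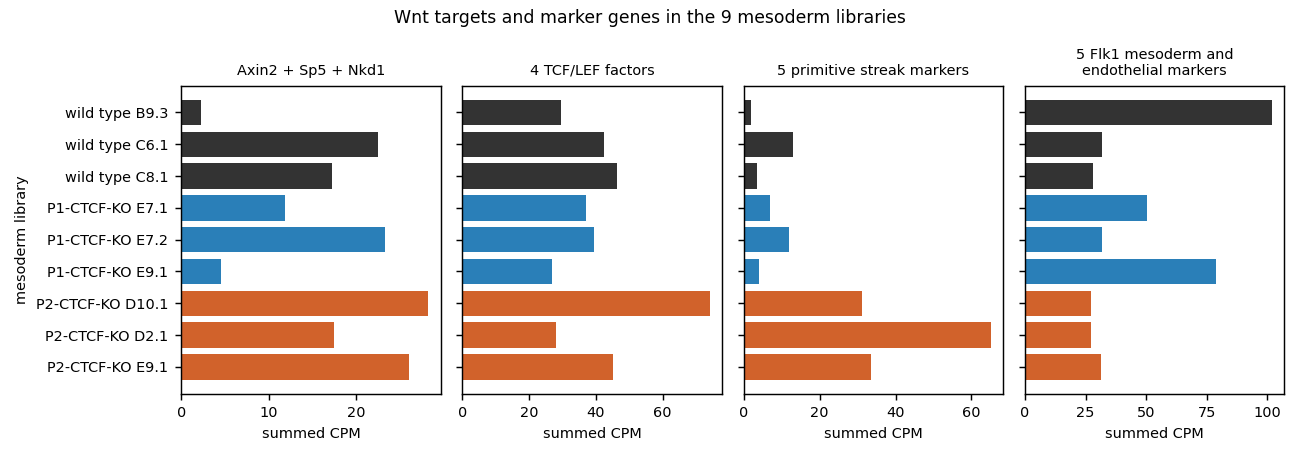
Summed CPM of the 3 feedback targets, the 4 TCF/LEF factors, 5 primitive streak markers and 5 Flk1 mesoderm and endothelial markers (x axes) in each of the 9 mesoderm libraries (y axis, 1 bar per library, colours for genotypes). Wild-type B9.3 and P1-CTCF-KO E9.1 have the shortest bars for the targets, 2.32 and 4.59 CPM, and the longest for the Flk1 mesoderm and endothelial markers, 102 and 78.9 CPM.

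In HPCs the genotypes could be compared for 14 members, since the other 32 had too few reads. Against wild type 0 were called in P1-CTCF-KO (0% of all 7422 genes) and 0 in P2-CTCF-KO (0% of all genes) by edgeR's quasi-likelihood test, 0 by DESeq2 and 0 at an unadjusted p under 0.05 in either comparison. Without P2-CTCF-KO D2.1 and wild-type B9.3, 13 members were tested and 0 were called in either. Across all 12 HPC libraries 13 members had reads in every one, *Ctnnb1*, *Fzd8*, *Apc*, *Gsk3b*, *Fzd5*, *Lgr4*, *Lrp6*, *Axin1*, *Fzd4*, *Znrf3*, *Lrp5*, *Tcf7l2* and *Rnf43*, and 14 were at 0 in at least 9. *Wnt6*, *Wnt8a*, *Rspo2* and *Sfrp5* were at 0 in all 12, which at this depth allows up to 3 reads over the group. The members with reads in every HPC library thus include receptors, co-receptors, ligases, the destruction complex and 1 TCF factor, but no ligand, no secreted inhibitor and no feedback target. That absence depends on the rule, since the ligand *Wnt5a* and the feedback target *Nkd1* were at 0 in 1 library each. Mean *Wnt5a* over the 12 libraries, 1.09 CPM, was above that of *Fzd4* (0.208 CPM) and *Fzd8* (0.602 CPM).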

How the data were processed

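Gene counts from 23 RNA-seq libraries depleted of poly(A) RNA and ATAC-seq peak positions of wild-type mesoderm and HPCs were analysed. The authors used STAR and mm9 for alignment, dropped PCR duplicates, and deposited featureCounts counts per gene over exons and introns. The strand setting and annotation are not given in the sources used here, so reads of *Wnt5b*, *Lgr5*, *Apc*, *Gsk3b* and *Tcf7l1* cannot be told apart from overlapping antisense genes, nor those of *Rnf43* and *Ctnnb1* from overlapping entries on the same strand. The authors deposited MACS2 peaks, called after Bowtie2 alignment from 1 merged file per stage, as positions without a score. The Methods name a reporter line, E14-TG2a-RV, for ATAC-seq, where the labels name E14-TG2a.

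Counts were tested with edgeR 4.0.16 in R 4.3.3 (TMM, minimum count 10, quasi-likelihood test, Benjamini-Hochberg adjustment over all genes tested) in separate fits: 9 wild-type libraries for undifferentiated cells against mesoderm, 21 sorted libraries for the step to HPCs, and the 9 mesoderm or 12 HPC libraries for genotypes. DESeq2 1.42.0, other scalings, no filter and omitted libraries were alternatives. The script was tested on simulated counts. Entries of ribosomal and multi-locus RNA (187) stayed in the main fits. P-values measure the spread between these libraries, some of which share a clone. The undifferentiated ones share a culture and entered as if independent. Counting intervals and floors (3 reads) cover counting error only. All replicate pairs differed by more than sampling noise. Clones link mesoderm and HPC libraries by their labels: the deviations of same-clone libraries correlated at -0.08 to 0.15 over 9170 genes in 9 clones.

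Members, gene lists and comparisons were chosen with earlier results of these data known. All 46 members are accounted for. Those called in a comparison, the highest per kilobase and classic β-catenin targets are given with full values, and of the other pathway genes up to 5 per comparison, by adjusted p among called genes without overlap. Starts are those of a mouse annotation of the same build (NCBIM37).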

Additional observations from a re-analysis of the deposited data

Results flagged for a closer look

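Levels that stood far from the rest of their group were looked for in the 2 HPC groups of 4 or 5 libraries, by the gap of the highest or lowest library to its neighbour relative to the group's range (Dixon's test, 95% level). Of 63 sets of values, 24 were far enough apart (38.1%), 7 sums over a role and 17 single members. This share cannot be set beside a chance rate, since role sums contain the members and many values are at or near 0. Members entered with at least 10 reads in the group, which *Wnt3* and *Rspo3*, among others, reached in P2-CTCF-KO only with D2.1. In 16 of them P2-CTCF-KO D2.1 was the highest, in 7 wild-type B9.3 was the highest and in 1 P2-CTCF-KO D10.1 was the lowest.

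In wild-type HPC library B9.3 the summed levels were 0.515 CPM for the secreted inhibitors (next library 0), 13.9 CPM for the TCF/LEF factors (next 3.75) and 2.15 CPM for the feedback targets (next 0.768). Single members were *Ror1* at 4.64 CPM (next 1.08), *Ror2* at 3.35 CPM (next 0.25), *Tcf7l1* at 7.56 CPM (next 0.416) and *Nkd1* at 1.72 CPM (next 0.493). The second library of the same clone was not high for any of them.

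In P2-CTCF-KO HPC library D2.1 the sums were 4.40 CPM for ligands (next 1.36), 30.7 CPM for receptors (next 17.6), 30.6 CPM for TCF/LEF factors (next 4.65) and 3.77 CPM for feedback targets (next 1.07). Single members were *Wnt3* and *Fzd3* at 1.05 CPM each, *Wnt4* at 0.837 CPM, *Fzd7* at 0.977 CPM, *Lrp5* at 6.56 CPM, *Ror1* at 6.28 CPM, *Rspo3* at 6.42 CPM, *Tcf7* and *Axin2* at 1.67 CPM each, *Tcf7l1* at 12.6 CPM, *Tcf7l2* at 10.5 CPM and *Lef1* at 5.86 CPM. *Lrp6* was lowest in D10.1, at 9.50 CPM against 11.9 CPM or more in the other 4.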

How the results depend on the processing

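Over 13 counts of members, 253 of 264 alternative values lay within 1.5 times the main count. The count of 15 between undifferentiated cells and mesoderm was 7 with libraries of 1 clone summed and 7 to 18 with 1 library left out. The count of 0 for P2-CTCF-KO against wild-type mesoderm was 2 with DESeq2, 6 without the filter on low counts, 1 with all 23 libraries in 1 fit and 0 to 5 with 1 library left out. The count of 0 for P2-CTCF-KO against P1-CTCF-KO mesoderm was 1 with DESeq2, 5 without the filter and 0 to 1 with 1 library left out. The cause of these moves was not tested. With 1 library left out, the steps from mesoderm to HPCs gave 16 to 22 members in wild type, 15 to 20 in P1-CTCF-KO and 14 to 19 in P2-CTCF-KO, and the counts of 0 for step differences and HPC genotypes stayed 0 in all settings run. With the clone as a replicate block the steps gave 18, 19 and 16 members and the step differences 0, and the blocked fit changed no calls other than the 4 lost and the 2 gained that are given beside their results. Of 70 called member changes, 49 kept their call in all settings run, 21 lost it in at least 1 and 0 changed direction. Members with a promoter peak numbered 33 to 40 (mesoderm) and 14 to 27 (HPCs) under other distances, peak widths and starts. RLE size factors, DESeq2 and removal of ribosomal and multi-locus entries moved the median of all genes by at most 0.08 in size on the log2 scale. No fit was scaled to reads outside ribosomal and multi-locus entries. By that share the members' combined level was lower in mesoderm than in undifferentiated cells, as given above. At 878966 to 1584401 reads for all genes outside ribosomal and multi-locus entries per HPC library, depth limits what HPC levels of ligands and targets can show.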
